A study of Mus musculus with 30 samples.

Results

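Agrn, Lrp4, Musk, Dok7, Rapsn, Erbb3 and Etv5 were examined in muscle that lacks myotubularin, a lipid phosphatase whose loss causes X-linked myotubular myopathy. These 7 genes were selected by symbol as organizers of the neuromuscular junction, and all 7 were found among the 36103 genes counted. Libraries were made from the gastrocnemius (a fast muscle of the hindlimb), diaphragm, heart and liver of male mice at 5 weeks. Both genotypes were on a pure 129Pas background. They were Mtm1-/y, carrying a constitutive knock-out of Mtm1 on their single X chromosome, and wild-type (WT) littermates, and the labels name no treatment. There were 4 libraries of each genotype for the gastrocnemius and the heart, 4 WT and 3 Mtm1-/y libraries for the diaphragm, and 3 and 4 for the liver. Whole tissues were extracted, so that nerve terminals, Schwann cells and vessels were sampled together with the fibres, and fewer cells of a type and less RNA per cell cannot be told apart. The study's methods give numbers of mice per group that match these library numbers.

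The neuromuscular junction is the synapse between a motor axon and a muscle fibre. The motor nerve secretes agrin, which binds the receptor LRP4 on the fibre. LRP4 then activates the kinase MuSK, with the cytoplasmic adaptor DOK7 as an activator from inside the fibre, and rapsyn clusters acetylcholine receptors at the postsynaptic membrane. ErbB3 is a receptor for neuregulin, found on muscle and, at high levels, on Schwann cells, and ETV5 (also called ERM) is an Ets transcription factor required for normal gene expression at the synapse. In innervated fibres, transcription of synaptic genes is largely restricted to the few nuclei below the synapse, and electrical activity represses it elsewhere in the fibre through E-boxes, the sites bound by myogenic regulatory factors such as myogenin.

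Promoter sequences are shown for 3 genes of the synapse, Musk and Chrna1, which were higher in Mtm1-/y gastrocnemius, and Dok7, which was not called. Each runs from 250 bases before to 50 bases after a RefSeq transcription start (GRCm38.p6, the patched form of mm10), 5′ to 3′ on the coding strand, with every E-box (CANNTG, which reads the same on both strands) in capitals. Chrna1 encodes the alpha subunit of the muscle acetylcholine receptor. Musk lies on the plus strand at chr4:58285712-58286011, Dok7 on the plus strand at chr5:35056516-35056815, the first of its 2 windows, and Chrna1 on the minus strand at chr2:73580289-73580588.
Musk: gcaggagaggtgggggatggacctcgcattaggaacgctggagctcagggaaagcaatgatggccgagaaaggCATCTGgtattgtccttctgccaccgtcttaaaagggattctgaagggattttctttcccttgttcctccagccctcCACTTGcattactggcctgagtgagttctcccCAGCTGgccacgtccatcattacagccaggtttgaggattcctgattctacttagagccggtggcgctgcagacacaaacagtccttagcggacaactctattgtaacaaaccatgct
Dok7: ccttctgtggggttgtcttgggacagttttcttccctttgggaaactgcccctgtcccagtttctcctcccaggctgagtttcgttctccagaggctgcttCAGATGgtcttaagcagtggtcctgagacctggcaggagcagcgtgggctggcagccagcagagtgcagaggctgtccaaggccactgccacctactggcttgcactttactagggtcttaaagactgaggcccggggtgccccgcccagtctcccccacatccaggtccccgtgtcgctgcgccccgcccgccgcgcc
Chrna1: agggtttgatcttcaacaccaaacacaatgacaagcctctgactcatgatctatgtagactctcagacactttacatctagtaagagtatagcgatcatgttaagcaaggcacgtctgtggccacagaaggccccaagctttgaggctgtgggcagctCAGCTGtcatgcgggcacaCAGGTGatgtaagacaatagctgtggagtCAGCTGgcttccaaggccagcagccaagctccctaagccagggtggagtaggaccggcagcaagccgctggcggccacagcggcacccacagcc
The Musk window held 3 E-boxes, beginning 177, 100 and 68 bases before the start, of which the last was CAGCTG. In the Chrna1 window there were also 3, beginning 92, 73 and 44 bases before the start. Dok7 had 1, beginning 149 bases before the start, and its second window had none. Of the windows not shown, the first of Etv5, which was not called either, had 2 E-boxes including 1 CAGCTG and its second had 0, those of Agrn had 0 and 1, and among receptor subunits that rose Chrnb1 and Chrng had 3 each and Chrne had 1. Among all 32851 promoter windows 72.3% held at least 1 E-box and 17.6% held 3 or more, whereas CAGCTG itself was found in 16.3%. The N-box (CCGGAA or its reverse complement TTCCGG), a binding sequence of Ets factors known from the Chrne promoter, was present in 14.9% of all windows and in none of those of Agrn, Musk, Dok7 and Etv5. The promoter set held no window for Erbb3, Lrp4, Rapsn and the receptor subunit Chrnd, so Musk is the only organizer called in the gastrocnemius that is covered. These matches describe letters only and were not tested for binding, and whether the number of E-boxes goes with the change in level was not tested.

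The deposited values were raw read counts with 24873817 to 44289343 counts per library. Levels are given as CPM (counts scaled to a fixed library size) after scaling by the trimmed mean of M values (TMM), and log2 fold changes set Mtm1-/y over WT libraries within 1 tissue, from edgeR's quasi-likelihood test. An adjusted p under 0.05 (Benjamini-Hochberg, over all genes tested) counted as a call. Mtm1 stood at 15.8 to 26.9 CPM in the WT libraries and at 3.49 to 8.19 CPM in the Mtm1-/y libraries, and every library matched its label. The defining markers of each labelled tissue were present: summed over 10 skeletal muscle markers the gastrocnemius had 138940 to 256506 CPM, and over 10 cardiac markers the heart had 33722 to 55287 CPM. One feature of the diaphragm bears on all that follows. Hepatocyte RNA was abundant in WT libraries 1, 2 and 4 and in Mtm1-/y library 2. Albumin (Alb) reached 15522 to 28292 CPM in these, against 251 to 1449 CPM in the other 3. Some diaphragm values, mainly of Musk, Erbb3 and Etv5, are therefore also given without those 4 libraries. Those of the receptor subunits and gene lists are given with all diaphragm libraries only.

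Musk rose in the gastrocnemius of Mtm1-/y mice. Its levels were 18.2, 11.1, 12.3 and 15.1 CPM in the WT libraries and 22.3, 20.3, 18.8 and 24.2 CPM in the Mtm1-/y libraries. The lowest Mtm1-/y library thus stood just above the highest WT library, WT 1, and the groups did not overlap. edgeR gave 0.61 as the log2 fold change (SE 0.15, adjusted p = 0.0137), with a 95% interval from 0.27 to 0.94.

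Erbb3 also rose in this muscle. WT libraries had 10.9, 7.91, 8.53 and 9.10 CPM, whereas Mtm1-/y libraries had 17.0, 12.1, 19.3 and 13.1 CPM, again without overlap. This log2 fold change was 0.77 with an SE of 0.16 (adjusted p = 0.00683, edgeR), with a 95% interval from 0.40 to 1.13. Markers of Schwann cells, on which this receptor is found at high levels, varied between libraries of the same group. The summed level of 15 Schwann cell markers was 629, 228, 196 and 543 CPM in WT libraries 1 to 4 and 563, 282, 671 and 767 CPM in Mtm1-/y libraries 1 to 4, with none of the markers at 0. The ranges overlapped between the genotypes. WT 1 and WT 4 were the highest WT libraries in both Erbb3 and this sum, Mtm1-/y 2 was the lowest of its group in both, and Mtm1-/y 3 was highest in Erbb3 and Mtm1-/y 4 in the sum. Of the 14 markers tested, 1 rose, Ngfr, encoding the p75 neurotrophin receptor of Schwann cells, while 14.1% of all genes rose. The median log2 fold change of these markers was 0.52. The part of the Schwann cell markers in the rise of Erbb3 was not tested.

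The remaining organizers did not pass the test in the gastrocnemius, in which 29.0% of the 15456 genes tested were called and 30.6% did not overlap between the genotypes. With 2 of 7 called and the same 2 not overlapping, the share of the organizers was close to that of all genes. Agrn, the nerve-derived and muscle-derived ligand, had 53.7, 39.96, 46.0 and 42.7 CPM in WT and 38.2, 37.1, 52.1 and 42.4 CPM in Mtm1-/y libraries (log2 fold change -0.09, SE 0.13, adjusted p = 0.631). Lrp4 stood at 21.2 to 24.9 CPM in WT and 20.3 to 27.3 CPM in Mtm1-/y libraries, with a log2 fold change of 0.07 (95% interval -0.15 to 0.28). The groups were thus interleaved for both the ligand and its receptor.

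Dok7 and Rapsn act downstream of MuSK activation or beside it, and neither passed the test. Dok7 varied within the WT group, with 44.1, 25.2, 24.9 and 35.3 CPM, and its Mtm1-/y libraries lay inside that range at 37.2, 28.6, 30.6 and 26.7 CPM (log2 fold change -0.06, 95% interval -0.47 to 0.35). Rapsn had 31.3, 29.1, 29.5 and 36.8 CPM in WT and 34.9, 37.0, 28.9 and 32.7 CPM in Mtm1-/y libraries (log2 fold change 0.09, 95% interval -0.13 to 0.30). For Etv5 the values were 17.1, 12.4, 10.9 and 12.1 CPM in WT and 17.0, 17.2, 11.9 and 14.7 CPM in Mtm1-/y libraries. The difference of 0.22 on the log2 scale did not pass (adjusted p = 0.322, edgeR), and WT 1 was as high as the upper Mtm1-/y libraries.

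**Figure D1:**
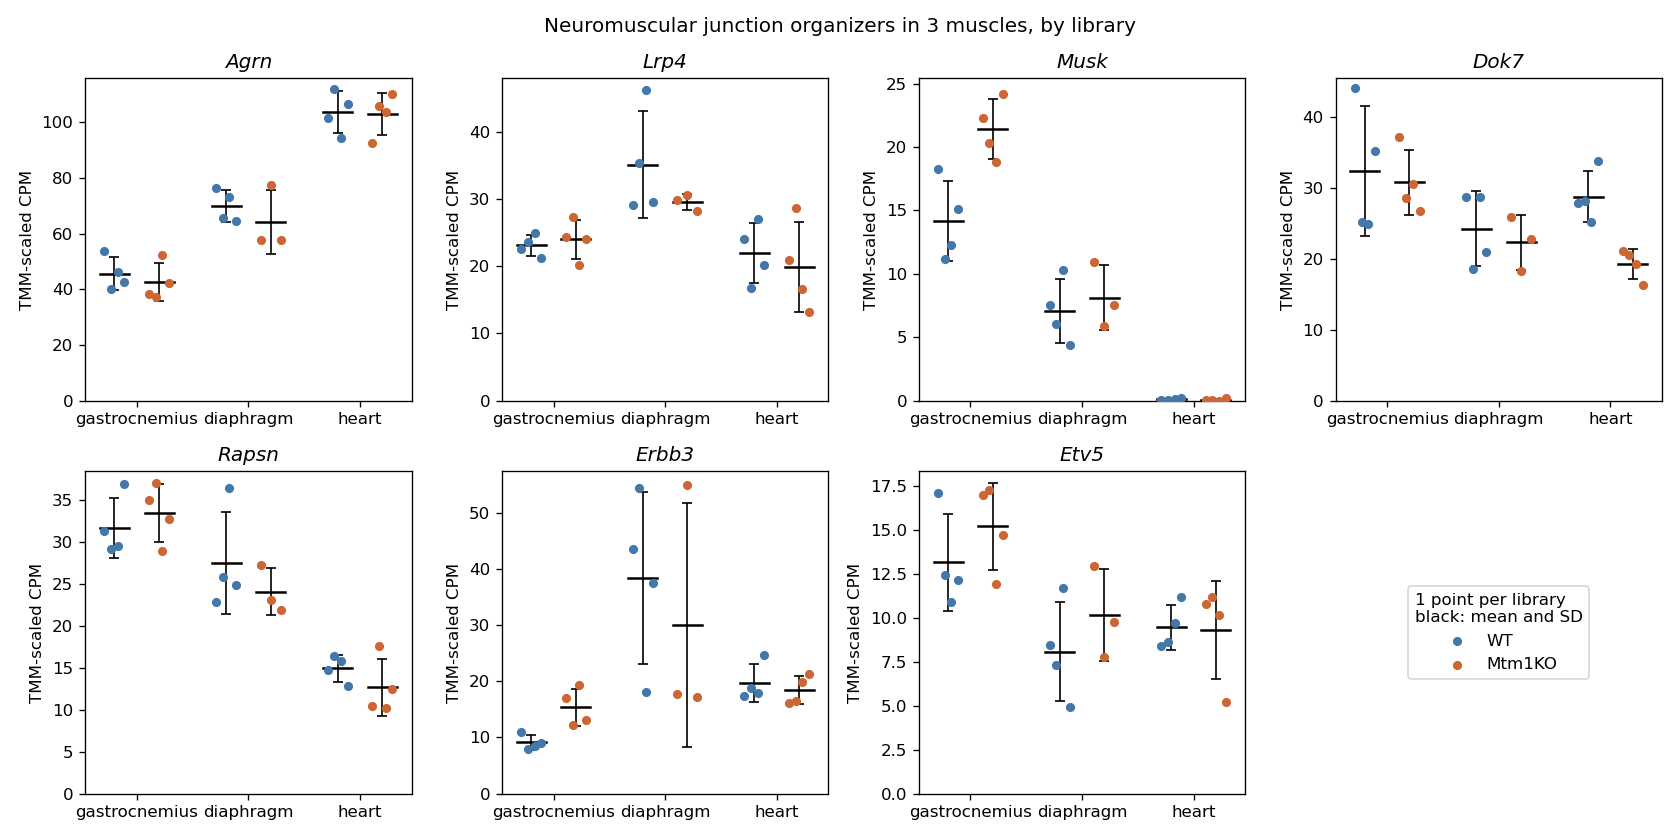
TMM-scaled CPM (vertical axes, from 0) of each organizer in every gastrocnemius, diaphragm and heart library, with WT in blue and Mtm1KO (Mtm1-/y) in orange; black bars give the mean and SD. Musk and Erbb3 separate by genotype in the gastrocnemius, at 18.8 to 24.2 against 11.1 to 18.2 CPM and at 12.1 to 19.3 against 7.91 to 10.9 CPM, Dok7 separates in the heart at 16.4 to 21.2 against 25.3 to 33.8 CPM, and Erbb3 in the diaphragm falls into a high and a low set in both genotypes.

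Scaling mattered in this muscle. TMM factors were 0.778 to 0.858 in the WT and 1.02 to 1.07 in the Mtm1-/y libraries, and when counts were scaled by library totals alone the median log2 fold change of all genes moved from 0.02 to 0.35. On that scale 5 organizers were called as higher, namely Lrp4 (0.40), Musk (0.93), Rapsn (0.42), Erbb3 and Etv5 (0.55), while Agrn and Dok7 turned to positive values of 0.24 and 0.27 that did not pass. However, 53.7% of all genes were called on that scale. Relative to the median of all genes, Musk stood at 0.59 with TMM and 0.58 with library totals, and Erbb3 at 0.75 with both. Both calls were lost when all 30 libraries shared a single fit, with adjusted p = 0.155 for Musk and 0.107 for Erbb3 (edgeR) at log2 fold changes of 0.59 and 0.75, and 15.8% of genes called.

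The acetylcholine receptor, which these organizers cluster, was raised in the same libraries. All 5 subunit genes of the muscle receptor rose in Mtm1-/y gastrocnemius, where 14.1% of genes rose and 14.9% fell, and their median log2 fold change was 1.77 against 0.02 over all genes. Chrna1 ranged from 28.8 to 46.6 CPM in WT and from 95.8 to 180 CPM in Mtm1-/y libraries (log2 fold change 1.77, SE 0.22, adjusted p = 0.00055, edgeR). Chrng, the subunit of the fetal receptor, went from 0.479 to 0.910 CPM in WT to 2.19 to 10.3 CPM in Mtm1-/y libraries. The adult subunit Chrne showed the smallest difference of the 5, from 31.8 ± 2.21 to 45.4 ± 9.52 CPM (SD, n = 4 in each), with a log2 fold change of 0.53 and an overlap of the groups.

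**Figure D2:**
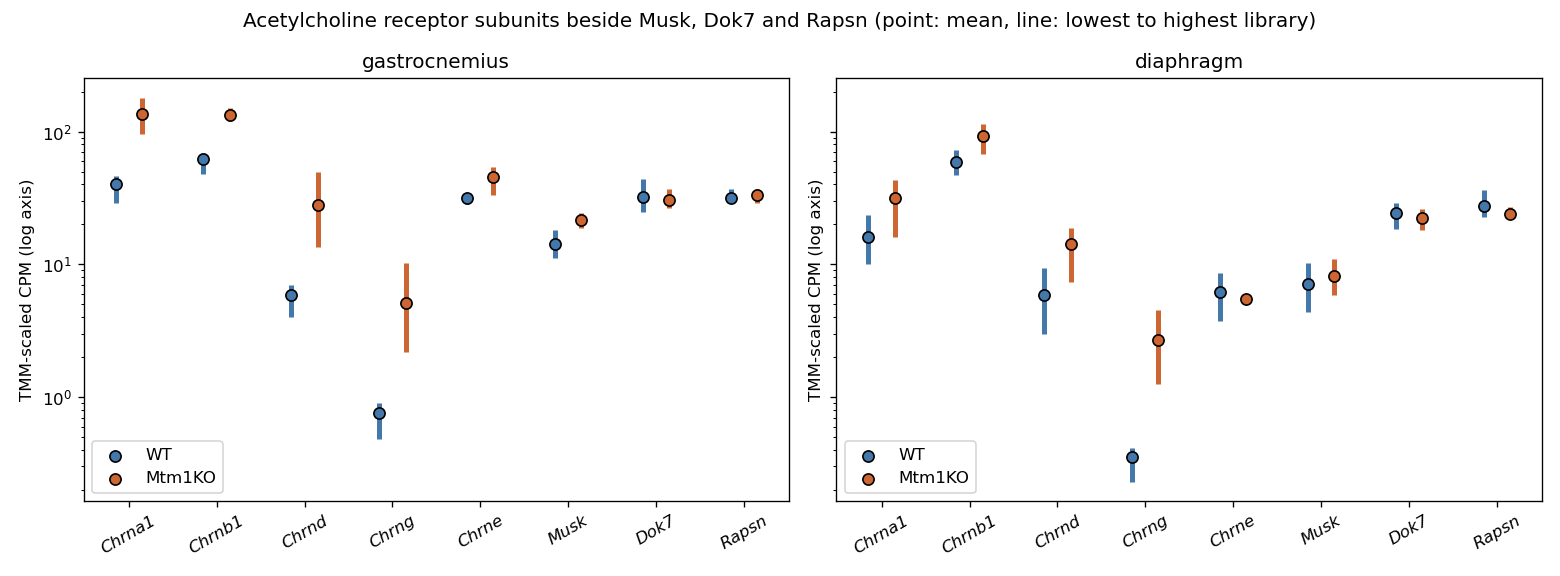
TMM-scaled CPM on a log axis of the 5 acetylcholine receptor subunit genes beside Musk, Dok7 and Rapsn in the gastrocnemius (left) and diaphragm (right); points are group means and lines run from the lowest to the highest library, WT in blue and Mtm1KO in orange. In the gastrocnemius Chrna1 rises from a mean of 40.4 to 136 CPM and Musk from 14.2 to 21.4 CPM, while the WT and Mtm1KO lines of Dok7 and Rapsn overlap in both muscles.

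Genes known to be induced by denervation were raised as well. Of 16 such genes 13 rose and none fell, with a median log2 fold change of 1.73. Over all genes 14.1% rose and 14.9% fell. Ankrd1, a stretch-responsive ankyrin repeat protein, rose from 4.10 ± 2.27 to 93.8 ± 32.2 CPM, Sln, encoding the calcium pump regulator sarcolipin, rose from 13.8 ± 6.24 to 293 ± 146 CPM, and Myh3, the embryonic myosin heavy chain, rose from 9.33 ± 1.14 to 130 ± 105 CPM (SD, n = 4 in each). Among 10 motor axon genes, whose RNA reaches muscle only in traces, 3 passed the filter on low counts and 1 fell, Nefh, encoding the heavy neurofilament, from 2.08 ± 0.365 to 0.542 ± 0.156 CPM (SD, n = 4 in each). The summed level of that list was 7.35 to 8.49 CPM in WT and 5.11 to 7.53 CPM in Mtm1-/y libraries, with 2 to 7 of its 10 genes at 0 in a library.

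Partners of MuSK, inside the fibre or outside it, were called at a share near that of all genes (29.0%, of which 14.1% rose and 14.9% fell). From 32 genes of MuSK signalling and synaptic Wnt input, 4 rose and 7 fell. Sorbs2, encoding a cytoskeletal adaptor, fell by 1.14 on the log2 scale (SE 0.14, adjusted p = 0.000511, edgeR), whereas Macf1, a microtubule and actin crosslinker that organizes the synapse, rose by 0.78 and the kinase gene Src by 0.60. The median log2 fold change of this list was -0.05.

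On the neuregulin side, 4 of the 18 genes tested rose and none fell, beside 29.0% called over all genes. Erbb2, the signalling partner of ErbB3, rose from 7.67 ± 1.94 to 16.4 ± 2.34 CPM (SD, n = 4 in each), or by 1.11 on the log2 scale (adjusted p = 0.00163, edgeR). Ets2, an Ets factor, rose by 0.61 and Spred1, an inhibitor of Ras signalling, by 0.44. In the synaptic basal lamina and postsynaptic scaffold 6 of 27 genes rose and 4 fell, again a share near the 29.0% of all genes. Ncam1, the neural cell adhesion molecule that spreads over denervated fibres, rose from 14.6 ± 2.51 to 49.4 ± 10.2 CPM and Colq, the collagen tail that anchors acetylcholinesterase, from 18.8 ± 2.82 to 32.2 ± 5.38 CPM, while Sntb1, a syntrophin, fell from 22.1 ± 6.12 to 12.9 ± 3.08 CPM (SD, n = 4 in each).

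Markers of other cell types were also called in the gastrocnemius, where 14.1% of all genes rose and 14.9% fell. All 10 macrophage markers rose, with a summed level of 59.3 to 102 CPM in WT and 176 to 220 CPM in Mtm1-/y libraries, led by Mpeg1, Cd68 and Lyz2. Of 12 fibroblast markers 6 rose, led by Mfap5, Lum and Col3a1, and of 10 endothelial markers 4 fell, led by Flt1, Cdh5 and Tie1. Satellite cell and myoblast markers summed to 106 to 130 CPM in WT and 61.0 to 65.7 CPM in Mtm1-/y libraries, with 4 of 8 falling, led by Calcr, Cdh4 and Fgfr4. Of 10 skeletal muscle markers 7 fell and 2 rose, the latter being Myh1 and Myh2, while Myh4, the IIb myosin gene, fell from 61207 ± 7061 to 30273 ± 5403 CPM (SD, n = 4 in each). Of 11 white adipocyte markers 8 rose, led by Acvr1c, Retn and Cfd. Among 15 hepatocyte markers tested 3 fell, Tat, Ahsg and Apoh, and 1 rose, a share near the 29.0% of all genes called. Among 3 heart markers tested 2 rose, Tnnt2 and Tnni3. The part of these lists in the changes of Musk and Erbb3 was not tested.

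In the diaphragm none of the 7 organizers was called and none separated the genotypes. edgeR called 2 of 16796 genes there (0.0119%), with 1806 genes at an unadjusted p under 0.05, DESeq2 called 2.39% of its genes and none of the organizers, and 9.94% of genes did not overlap between the genotypes. Libraries of a group varied more here, with a biological coefficient of variation of 0.394 against 0.171 in the gastrocnemius, and the intervals of Musk and Erbb3 include the values they had in the gastrocnemius. On simulated counts the diaphragm fit recovered 0 of 200 genes changed 2-fold, so the absence of calls here cannot show that a gene was unchanged.

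Musk had 7.55, 6.07, 10.3 and 4.38 CPM in the WT and 10.9, 5.89 and 7.53 CPM in the Mtm1-/y diaphragm libraries 1, 2 and 4, with a log2 fold change of 0.22 (95% interval -0.55 to 0.99). The highest levels, in Mtm1-/y 1 and WT 3, came from both genotypes, and the fold change turned to -0.16 without the libraries high in Alb (1 WT and 2 Mtm1-/y libraries left) and to -0.04 without Mtm1-/y 1. Agrn ranged from 64.5 to 76.3 CPM in WT and from 57.5 to 77.5 CPM in Mtm1-/y libraries (log2 fold change -0.10). Log2 fold changes were -0.23 for Lrp4, -0.10 for Dok7 and -0.17 for Rapsn, all with intervals across 0. Lrp4 and Rapsn were highest in the same library, WT 3, at 46.4 and 36.4 CPM. Etv5 had 8.43, 7.30, 11.7 and 4.89 CPM in WT and 12.9, 7.74 and 9.76 CPM in Mtm1-/y libraries (log2 fold change 0.35, 95% interval -0.37 to 1.07). This fold change also turned sign without the libraries high in Alb.

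Erbb3 was high in the diaphragm libraries high in Alb, whatever their genotype. It stood at 43.6, 54.5, 18.0 and 37.5 CPM in the WT and at 17.8, 55.1 and 17.1 CPM in the Mtm1-/y libraries. The 4 libraries high in Alb had 37.5 to 55.1 CPM and the other 3 had 17.1 to 18.0 CPM, and in the liver itself Erbb3 ranged from 115 to 234 CPM. The log2 fold change between the genotypes was -0.32 (95% interval -1.57 to 0.93), and -0.05 without the libraries high in Alb. Musk ran the other way, apart from a near tie of WT 1 and Mtm1-/y 4, with 4.38 to 7.55 CPM in the libraries high in Alb and 7.53 to 10.9 CPM in the others, and Etv5 did likewise with 4.89 to 8.43 and 9.76 to 12.9 CPM. Agrn, Lrp4, Dok7 and Rapsn overlapped between these sets. All 16 hepatocyte markers had counts in every diaphragm library, and their sum ran from 603 to 52301 CPM.

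**Figure D3:**
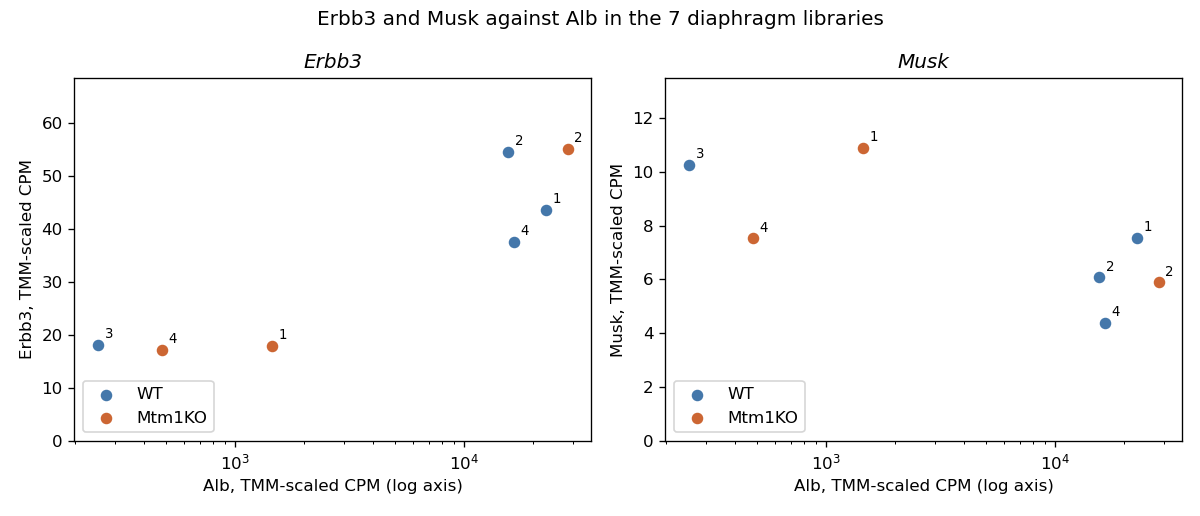
TMM-scaled CPM of Erbb3 (left) and Musk (right) against that of Alb on a log axis in the 7 diaphragm libraries, numbered by replicate, WT in blue and Mtm1KO in orange. The 3 libraries with 251 to 1449 CPM of Alb hold 17.1 to 18.0 CPM of Erbb3 and the 4 with more hold 37.5 to 55.1 CPM, in both genotypes.

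Receptor subunits in the diaphragm had no call from edgeR (0 of 5) and 1 from DESeq2. The exception was Chrng, at 0.229 to 0.410 CPM in WT and 1.25 to 4.57 CPM in Mtm1-/y libraries, without overlap (log2 fold change 2.95, adjusted p = 0.264 with edgeR and 3.94e-06 with DESeq2). Chrna1 had a log2 fold change of 1.01, Chrnb1 of 0.67 and Chrnd of 1.29, with adjusted p = 0.414, 0.363 and 0.390 (edgeR). The adult subunit Chrne went the other way, at -0.15 (adjusted p = 0.932, edgeR). For the denervation-responsive genes edgeR called 0 of 16 and DESeq2 called 7 as higher and 1 as lower, with a median log2 fold change of 0.71. Sln, the most abundant of them, had 314 ± 58.0 CPM over 4 WT libraries against 483 ± 167 CPM over 3 Mtm1-/y libraries (SD). No gene of the MuSK partner, neuregulin or basal lamina lists was called by edgeR, and DESeq2 called 2, 1 and 1 of them.

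In the heart Musk was nearly absent. It had 2, 3, 4 and 6 counts in the WT and 1, 1, 0 and 6 counts in the Mtm1-/y libraries, at most 0.193 CPM, and was too low to be tested. The other 6 organizers passed the filter, and edgeR called none of them, at 1 called gene of 15238 (0.00656%) and 1353 genes at an unadjusted p under 0.05.

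Dok7 had its 4 lowest values in the Mtm1-/y hearts. WT hearts had 27.9, 28.2, 25.3 and 33.8 CPM, and Mtm1-/y hearts had 21.2, 20.5, 19.2 and 16.4 CPM, without overlap. It was the 1 organizer of the 6 tested in heart whose groups did not overlap, which held for 4.17% of all genes tested there. The log2 fold change was -0.58 (SE 0.11, 95% interval -0.84 to -0.32), with adjusted p = 0.353 in edgeR and 0.00849 in DESeq2, which called 0.461% of its genes. The call thus depended on the tool. Among receptor subunits, Chrna1 was at 0 to 0.136 CPM and Chrnd, encoding the delta subunit, was at 0 in all 8 hearts. The summed skeletal muscle markers were 2741 to 3656 CPM in WT and 2683 to 4056 CPM in Mtm1-/y hearts. The most abundant of them was Ckm, at 1408 ± 242 and 1541 ± 106 CPM (SD, n = 4 in each). White adipocyte markers summed to 494 to 617 CPM in WT and 476 to 574 CPM in Mtm1-/y hearts, with 7 of them lower by DESeq2. Their median log2 fold change was -2.50 over the 10 genes tested. Most of each group's sum was Fabp4, which went the other way, with a mean of 407 CPM over the WT hearts against 467 CPM over the Mtm1-/y hearts. Hepatocyte markers summed to 22.2 to 199 CPM in WT and 62.7 to 165 CPM in Mtm1-/y hearts, with a median log2 fold change of 2.08 and, by DESeq2, 3 higher and 1 lower. Among them Alb did not overlap, at 0.814 to 21.1 CPM in WT and 23.9 to 86.4 CPM in Mtm1-/y hearts. The part of these genes and lists in the difference of Dok7 was not tested.

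Other organizers in the heart were interleaved between the genotypes. Agrn stood at 101, 112, 94.4 and 107 CPM in WT and at 92.6, 106, 104 and 110 CPM in Mtm1-/y hearts, with the narrowest interval of the 6 genes tested there, from -0.20 to 0.17 around a log2 fold change of -0.02. Rapsn had 12.8 to 16.3 CPM in WT and 10.2 to 17.6 CPM in Mtm1-/y hearts, Lrp4 had 16.8 to 27.1 and 13.2 to 28.7 CPM, and Erbb3 had 17.4 to 24.8 and 16.2 to 21.3 CPM. Their log2 fold changes were -0.24, -0.16 and -0.10. Etv5 was at 8.36 to 11.2 CPM in WT and at 10.8, 11.2, 10.2 and 5.19 CPM in Mtm1-/y hearts, and its log2 fold change went from -0.03 to 0.17 without the lowest library, Mtm1-/y 4. Chrnb1, the 1 receptor subunit gene that passed the filter in heart, had 8.93 ± 0.670 CPM in WT hearts against 9.27 ± 1.62 CPM (SD, n = 4 in each), and edgeR called no gene of the 15 lists there.

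**Figure D4:**
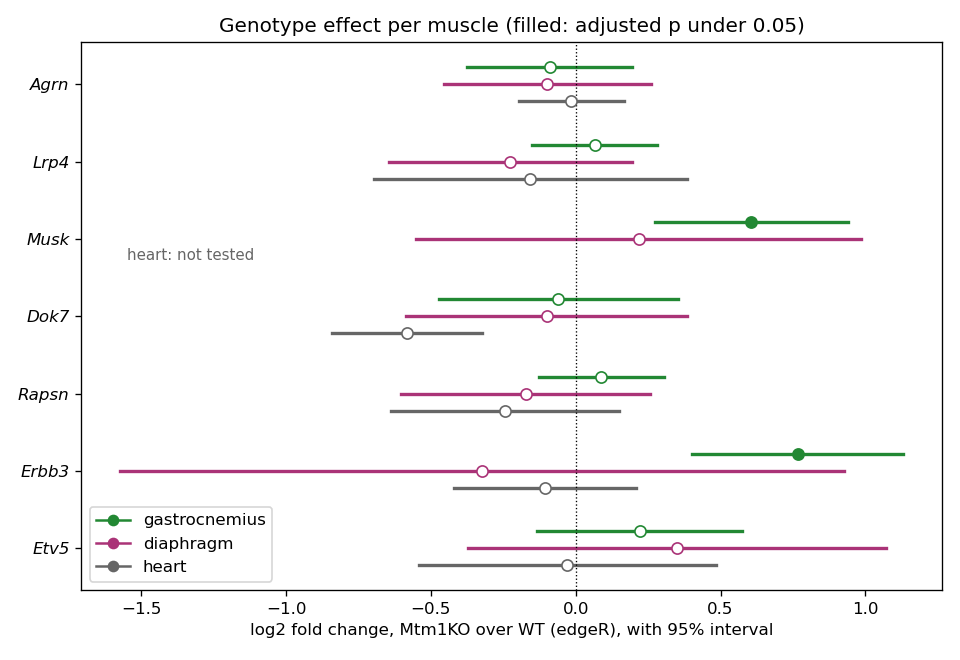
Log2 fold change of Mtm1KO over WT (horizontal axis) with its 95% interval for each organizer in the gastrocnemius (green), diaphragm (purple) and heart (grey); filled points passed an adjusted p under 0.05 in edgeR. Musk (0.61) and Erbb3 (0.77) in the gastrocnemius are filled, Dok7 in the heart (-0.58) lies below 0 with its whole interval but is open, and the diaphragm interval of Erbb3 is the widest at -1.57 to 0.93.

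Whether the genotype effect differed between muscles was tested in fits of both tissues, which share libraries with the comparisons above. The labels do not say whether libraries of different tissues came from the same mice. These fits, and the fit of WT muscles below, took all libraries as independent. Erbb3 differed between heart and gastrocnemius, with a difference of effects of -0.85 on the log2 scale (SE 0.23, adjusted p = 0.0173, edgeR; 95% interval -1.33 to -0.37). It was the only organizer called there, among 19.8% of genes, and was not called when all 30 libraries shared a fit (-0.85, adjusted p = 0.226, edgeR). For Dok7 the difference was -0.51 (SE 0.23, adjusted p = 0.137, edgeR), and it was called at -0.69 without WT gastrocnemius 1 (adjusted p = 0.0302, edgeR). Between gastrocnemius and diaphragm no organizer was called, at 0.28% of genes, and the difference for Erbb3 was 1.11 (95% interval -0.09 to 2.31). Between heart and diaphragm none was called either, at 0.00573% of genes, with -0.47 for Dok7 (95% interval -0.98 to 0.04). The rise of Musk in the gastrocnemius was therefore not shown to differ from its value in the diaphragm.

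In WT mice Musk was expressed in the skeletal muscles and nearly absent from the heart. It stood at 14.2 ± 3.18 CPM in the WT gastrocnemius, 7.07 ± 2.49 CPM in the diaphragm and 0.104 ± 0.0426 CPM in the heart (SD, n = 4 in each). The WT libraries are the same as in the comparisons above, and in a single fit of the 12 muscle libraries 54.8% of genes were called between gastrocnemius and diaphragm, 64.2% between heart and gastrocnemius and 51.1% between heart and diaphragm, with 5, 4 and 5 of the 7 organizers among them. Musk was 1.03 higher on the log2 scale in gastrocnemius than in diaphragm (SE 0.25, adjusted p = 0.00382, edgeR). Musk is also among the genes called between the heart and each skeletal muscle, but it passed the filter there through the skeletal muscle libraries, and no fold change is given against hearts with 2 to 6 counts. In contrast, Dok7 showed no called difference between any WT muscles, with 32.4 ± 9.19, 24.3 ± 5.29 and 28.8 ± 3.57 CPM in gastrocnemius, diaphragm and heart (SD, n = 4 in each). Without WT diaphragm 3 it was called between gastrocnemius and diaphragm at 0.59 (adjusted p = 0.0324, edgeR), as it was without WT gastrocnemius 2 (0.55) or 3 (0.55), against 0.44 with all libraries. Rapsn likewise went from 0.23 to a called 0.45 without WT diaphragm 3, and turned sign without the libraries high in Alb. WT diaphragm 3 was the only WT diaphragm library low in Alb (251 CPM). Leaving it out therefore keeps only WT diaphragms high in Alb.

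Agrn ran in the opposite order to Musk. WT levels were 45.6 ± 5.94 CPM in gastrocnemius, 69.9 ± 5.82 CPM in diaphragm and 104 ± 7.50 CPM in heart (SD, n = 4 in each), and all 3 muscles differed (log2 differences of -0.59 for gastrocnemius against diaphragm, and for heart 1.15 against gastrocnemius and 0.55 against diaphragm, with adjusted p = 0.000377, 1.35e-06 and 0.000696, edgeR). Agrin is also a component of vascular basement membranes, and the endothelial markers summed to 620 to 754 CPM in WT gastrocnemius, 725 to 845 CPM in WT diaphragm and 1033 to 1202 CPM in WT heart, a parallel whose part in the order of Agrn was not tested. Rapsn was lower in heart than in gastrocnemius by -1.12 and than in diaphragm by -0.89 on the log2 scale, and Lrp4 was highest in diaphragm, with log2 differences of -0.58 for gastrocnemius and -0.68 for heart against it. Between heart and gastrocnemius Lrp4 (-0.11) and Etv5 (-0.51) were not called. With library totals, which moved the median of all genes in this comparison from 0.08 to 0.67, Lrp4 turned to a called 0.49 (adjusted p = 0.019, edgeR) and Etv5 to 0.08. Etv5 was called with limma voom (-0.58), without the diaphragm libraries high in Alb (-0.51), and without WT diaphragm 3 (-0.52) or 4 (-0.51) in the shared fit.

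WT differences of Erbb3 and Etv5 changed in size when the diaphragm libraries with liver RNA were left out, which leaves 1 WT diaphragm library. Between WT gastrocnemius and diaphragm the log2 difference of Erbb3 was -2.06, and it was still called at -0.93 without those libraries (adjusted p = 0.0123, edgeR), while between heart and diaphragm it turned from a called -0.98 to 0.14, which was not called. Heart exceeded gastrocnemius by 1.08 (adjusted p = 0.00449, edgeR). Etv5 was 0.73 higher in gastrocnemius than in diaphragm, and the value was no longer called without the libraries high in Alb (0.22), without WT gastrocnemius 1 (0.58) or with library totals (0.22), which moved the median of all genes between these muscles from -0.05 to -0.56. The same held for Musk between these muscles, at 0.52 without those libraries and at 0.53 with library totals.

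Per kilobase of exon the 7 genes can be ranked within a muscle. In WT gastrocnemius Rapsn led at 17.6 ± 1.98 CPM per kb, followed by Dok7 at 7.57 ± 2.15, Agrn at 4.91 ± 0.640, Musk at 3.76 ± 0.841, Etv5 at 3.20 ± 0.666, Lrp4 at 2.20 ± 0.151 and Erbb3 at 1.51 ± 0.215 CPM per kb (SD, n = 4). Agrn and Musk overlapped, as did Musk and Etv5, and the other neighbours did not. In the diaphragm only Rapsn, at 15.2 ± 3.37 CPM per kb, stood clear of its neighbour in the order. The heart had Agrn first, at 11.2 ± 0.808 CPM per kb, then Rapsn at 8.27 ± 0.864 and Dok7 at 6.74 ± 0.834, of which the last 2 overlapped, and Musk last at 0.0276 ± 0.0113 CPM per kb (SD, n = 4).

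**Figure D5:**
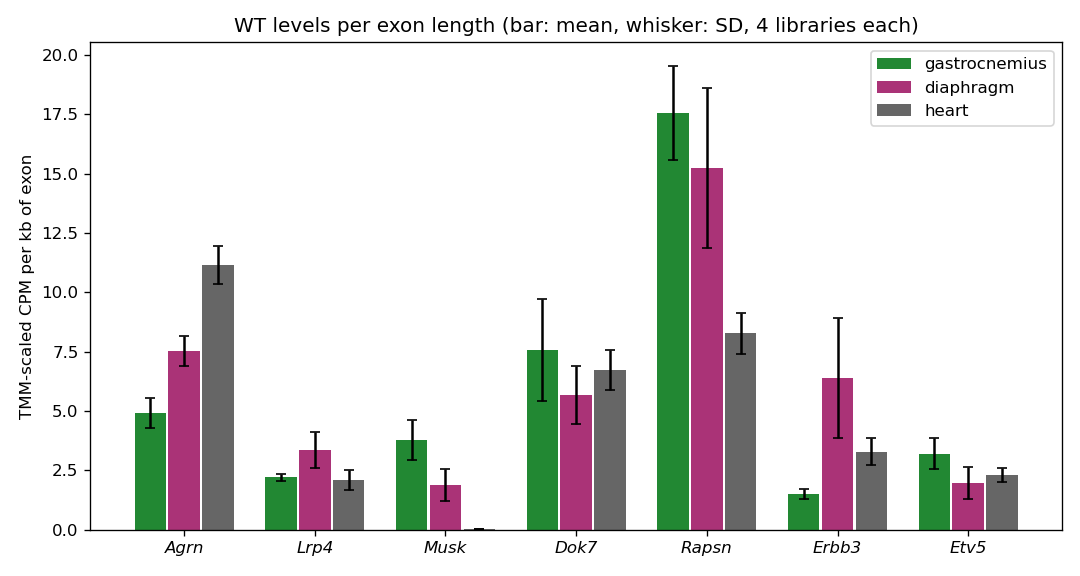
TMM-scaled CPM per kb of exon (vertical axis, from 0) of the 7 organizers in WT gastrocnemius (green), diaphragm (purple) and heart (grey); bars are means and whiskers SD over 4 libraries. Rapsn leads in both skeletal muscles at 17.6 and 15.2 CPM per kb, Agrn leads in the heart at 11.2 CPM per kb, and Musk is near 0 in the heart.

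In the liver, which has no neuromuscular junction, Musk, Dok7 and Rapsn were at or near 0, with at most 0.0463, 0.231 and 0.185 CPM in any of the 7 libraries. Agrn, Lrp4, Erbb3 and Etv5 passed the filter and edgeR called none of them, as it called none of 14305 genes (0%), with 606 at an unadjusted p under 0.05, while DESeq2 called 0.136% of its genes and no organizer. Even Mtm1, at a log2 fold change of -1.60, was not called by edgeR in the liver (adjusted p = 0.365), although DESeq2 called it (adjusted p = 1.46e-06). The absence of edgeR calls there is therefore weak evidence of no change. Erbb3 was highest in this organ, with 157, 196 and 234 CPM in WT and 115, 226, 144 and 173 CPM in Mtm1-/y libraries (log2 fold change -0.26, 95% interval -0.76 to 0.24). WT levels of the others were 76.2 ± 11.8 CPM for Agrn, 20.2 ± 0.616 CPM for Lrp4 and 3.04 ± 1.04 CPM for Etv5 (SD, n = 3).

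The genes whose levels ran most like each organizer were looked up over the 15 gastrocnemius and diaphragm libraries, after the mean of each muscle was subtracted from log2 CPM, among 13924 genes. These correlations are descriptions, and the libraries share genotype, depth and liver RNA. Musk was most like Polr3b, a subunit of RNA polymerase III (0.90), and Ache, encoding acetylcholinesterase (0.89), which had 49.1 ± 5.40 CPM in the gastrocnemius of WT mice against 71.5 ± 15.1 CPM in that of Mtm1-/y mice (SD, n = 4 in each). Etv5 was most like its paralog Etv4 (0.86) and Crtc1 (0.86), a coactivator of CREB. Erbb3 was most like Lpin2 (0.94) and Cldn1 (0.93), both of which had their highest WT level in the liver, at 450 and 162 CPM. Lrp4 went with Prr29 (0.88) and Trpm4 (0.88), Rapsn with Podxl2 (0.88) and Mief2 (0.88), Agrn with Cdc42bpb (0.86) and Rbbp6 (0.85), and Dok7 least closely with Hist1h2ba (0.79) and Dcp1a (0.76). Between organizers the highest values were 0.86 for Musk with Etv5 and 0.75 for Lrp4 with Rapsn, and Erbb3 with Musk gave -0.14.

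In the mm10 genome the 7 genes are protein coding and lie on 5 autosomes, Agrn at chr4:156165290-156197488, Lrp4 at chr2:91457511-91513779, Musk at chr4:58285960-58374303, Dok7 at chr5:35056766-35087839, Rapsn at chr2:91035620-91045729, Erbb3 at chr10:128567523-128589652 and Etv5 at chr16:22381309-22439719. Counts were summed over the exons of each gene, and the strand setting of the counting is not given in the sources used here. Rapsn shares 4 exon bases with the antisense gene Gm13778, and no other organizer shares exon bases with another gene.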

How the data were processed

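Raw read counts per gene were deposited by the authors for all 30 libraries. The authors prepared poly-A RNA with a stranded kit, used cutadapt 1.10 for trimming, STAR 2.5.3a for alignment (mm10) and HTSeq 0.6.1p1 for counting, per the labels and methods. Here counts were filtered within each fit by filterByExpr (count minimum 10), scaled by TMM and tested with edgeR 4.0.16 in R 4.3.3. DESeq2 1.42.0, limma 3.58.1 (voom with sample weights) and other settings were alternatives. Plotted and printed CPM used TMM factors over all 30 libraries. Levels per kb used exon lengths of GENCODE M21. Depth was 24873817 to 44289343 counts per library.

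The organizers and gene lists were chosen with earlier results of these data known. Genes were named by a rule: the organizers, Mtm1, per list and tissue the 3 called genes with the largest change that reached 1 CPM in a group mean (the most abundant gene where none was called), and the 2 genes most correlated with each organizer. The receptor subunits of the diaphragm were named after their values were seen. Of 214 list entries 213 matched the counts. The fits were tested on simulated counts in which 200 genes were changed 2-fold. They recovered 86% of these in gastrocnemius, 75.5% in heart, 49.5% in liver and 0% in diaphragm. For differences of effects they recovered 61% (heart minus gastrocnemius), 24.5% (gastrocnemius minus diaphragm) and 9.5% (heart minus diaphragm). Between WT muscles recovery was 65% to 77%. The changed genes were drawn from those with more counts and changed all at once, whereas edgeR called 1 gene in the real heart and 0 in the real liver. The rates for heart and liver may therefore overstate what the real fits could detect. Promoters came from RefSeq (GRCm38.p6), which held 4 of the 7 organizers. Same-numbered libraries of the genotypes did not deviate together (correlations -0.04 to 0.10 in gastrocnemius), so numbers were not taken as pairs.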

Additional observations from a re-analysis of the deposited data

Results flagged for a closer look

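Erbb3 had different genotype effects in heart and gastrocnemius, with a difference of -0.85 on the log2 scale in a test of the difference itself (adjusted p = 0.0173, edgeR). The effect was 0.77 in the gastrocnemius, where all 4 Mtm1-/y libraries stood above all WT libraries, and -0.10 in the heart, where the groups overlapped. Erbb3 was the only organizer called in this comparison, in which 19.8% of all genes were called. Its call was lost when all 30 libraries shared a fit.

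Etv5 in Mtm1-/y heart 4 was at 5.19 CPM, far below the other 3 Mtm1-/y hearts at 10.2 to 11.2 CPM. It was the 1 library that stood apart among 42 gene and group combinations of 4 libraries, and chance alone would flag about 1 in 20.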

How the results depend on the processing

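No organizer was called in the gastrocnemius when an absolute log2 fold change over 1 was required (0) or when all 30 libraries shared a fit (0), and 5 were called with library totals alone, a scaling chosen after seeing the data, under which Agrn turned to 0.24 and Dok7 to 0.27. In the heart DESeq2 called 1 (Dok7). For the difference between heart and gastrocnemius the counts were 0 with the fold change threshold, 0 with all 30 libraries, 2 with limma voom (Rapsn, Erbb3), 3 with library totals, and 1 to 2 when 1 library was left out, with Dok7 added without WT gastrocnemius 1, Rapsn without Mtm1-/y heart 2 and Musk without Mtm1-/y heart 4, the last of which is not read, since the hearts then hold 0 to 6 counts of Musk. Limma voom called 1 (Erbb3) between gastrocnemius and diaphragm. Between the WT gastrocnemius and diaphragm the fold change threshold left 2, library totals 3 and the omission of diaphragm libraries high in Alb (also chosen after seeing the data) 3, while limma voom called 6 (Rapsn added) and leaving out 1 library gave 4 (without WT gastrocnemius 1) to 7 (without WT diaphragm 3). Without WT diaphragm 3 only WT diaphragms high in Alb remain. Dok7 stood at -0.071 and Rapsn at -0.28 under library totals, and Rapsn at -0.15 without the libraries high in Alb. Between WT heart and gastrocnemius 5 were called with limma voom, with library totals, without the libraries high in Alb, and without WT diaphragm 3 or 4, against 4; Lrp4 turned to 0.49 and Etv5 to 0.082 with library totals, and leaving out 1 library gave -0.22 to 0.011 for Lrp4. Between WT heart and diaphragm the threshold left 1 (2 with liver-enriched genes left out as well), and Erbb3 turned to 0.14 without the libraries high in Alb. Over the 15 lists the count of called genes went from 92 to 47 with the threshold in the gastrocnemius, and from 0 to 21, 13 and 2 with DESeq2 in diaphragm, heart and liver. Signs turned for differences that were not called: in the diaphragm Musk (from 0.22 to -0.16) and Etv5 (from 0.35 to -0.043) without the libraries high in Alb, Dok7 (0.11) and Rapsn (0.012) with limma voom, and in the heart Agrn (0.023) and Erbb3 (0.066) with limma voom. Leaving out 1 library gave -0.17 to 0.13 for Dok7 in the gastrocnemius, -0.043 to 0.48 for Musk, -0.21 to 0.016 for Dok7 and -0.26 to 0.016 for Rapsn in the diaphragm, and -0.058 to 0.030 for Agrn, -0.18 to 0.029 for Erbb3 and -0.12 to 0.17 for Etv5 in the heart. The cause of these changes was not tested. With the replicate number as a block 2 organizers were still called in the gastrocnemius and Dok7 in the diaphragm turned to 0.0095; same-numbered libraries correlated at -0.04 to 0.10 in gastrocnemius, -0.64 to 0.46 in diaphragm, -0.54 to 0.26 in heart and -0.05 to 0.33 in liver. DESeq2's size factors, no filter and the omission of liver-enriched genes left the counts of organizers called at an adjusted p under 0.05 as they were in all comparisons. Over all alternatives 683 values of single organizers kept their sign and their side of the threshold, 16 gained a call, 8 lost one and 28 turned sign. Groups of 3 or 4 libraries and the liver RNA of 4 diaphragm libraries limit what can be detected, most of all in the diaphragm.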
